A study of Mus musculus with 30 samples.

Results

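Levels of 10 melanocyte pigment genes were followed in B16F10 cells, a mouse melanoma line that makes melanin, after culture with IFNγ, IFNβ or a STING agonist. The genes were taken from a list written by name, Tyr, Tyrp1, Dct, Pmel, Mlana, Slc45a2, Slc24a5, Oca2, Mitf and Sox10, and not by a threshold on measured values. The list was chosen with earlier results of these data known, so counts of called members are a description only. They are 10 of the 49315 genes counted in the files, and all 10 were among the 21138 genes with at least 10 reads over the 24 bulk libraries of the study. The B16F10 cells account for 12 of these libraries, with 3 each for vehicle, IFNγ (100 ng/mL), IFNβ (1000 U/mL) and STING agonist (225 μg/mL), all taken at 24 h. The labels give the genotype of all samples as C57BL/6 and the tissue as tumor, although the cells were treated in culture. The remaining 12 bulk libraries are from 6694c2 cells, a mouse pancreatic cancer line, with the same treatments, and these served only to check for carried-over reads. B16F10 is 1 line, and the sources do not state that the 3 libraries of a group came from separate cultures, so p-values measure the spread between these libraries, which may be technical. In bulk RNA, fewer cells that express a gene and less RNA of it per cell cannot be told apart.

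Melanin is made in the melanosome, an organelle related to the lysosome. Tyrosinase, the product of Tyr, carries out the first and rate-limiting oxidation of tyrosine, and the related enzymes encoded by Tyrp1 and Dct act on later intermediates of eumelanin. Pmel forms the amyloid fibrils on which melanin is deposited, and Mlana encodes a small melanosomal membrane protein needed for Pmel processing. Slc45a2, Slc24a5 and Oca2 encode membrane transporters that set the ionic conditions and pH in which tyrosinase works, and loss of any of them causes albinism. Mitf, a basic helix-loop-helix factor that binds E-box sequences, is the main transcription factor of the lineage and activates most of these genes, and Sox10 acts upstream of it and together with it. Several of the proteins are also antigens for T cells in melanoma. IFNγ acts mainly on gamma-activated sites in its target genes, and IFNβ acts mainly on interferon-stimulated response elements.

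On GRCm38, with spans as the files give them, the enzyme genes were Tyr (ENSMUSG00000004651) on chr7:87424771-87493512, minus strand, Tyrp1 (ENSMUSG00000005994) on chr4:80834123-80851719, plus strand, and Dct (ENSMUSG00000022129) on chr14:118012792-118052246, minus strand. The structural genes were Pmel (ENSMUSG00000025359) on chr10:128706258-128720238, plus strand, and Mlana (ENSMUSG00000024806) on chr19:29697921-29708448, plus strand. The transporter genes were Slc45a2 (ENSMUSG00000022243) on chr15:11000721-11029233, plus strand, Slc24a5 (ENSMUSG00000035183) on chr2:125068124-125088677, plus strand, and Oca2 (ENSMUSG00000030450) on chr7:56239760-56536518, plus strand. The transcription factor genes were Mitf (ENSMUSG00000035158) on chr6:97807052-98021349, plus strand, and Sox10 (ENSMUSG00000033006) on chr15:79154913-79164490, minus strand.

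Mitf is known to act on the M-box, an extended E-box in promoters of pigment genes. RefSeq windows on GRCm38.p6, from 250 bases before to 50 bases after the transcription start, were found for 6 of the 10 genes (8 windows, of which 3 belong to Mitf). The windows below are 300 bases each and are written 5′ to 3′ on the strand of the gene. Capitals mark the core of the M-box, TCATGTG, or the same core read on the other strand, CACATGA, and in the Mitf window the cAMP response element TGACGTCA, the site through which melanocortin signalling is known to reach Mitf. They are shown because Tyr, Tyrp1 and Dct are the 3 melanin enzymes, Slc24a5 is a transporter with the same core, and Mitf is the factor itself.

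Tyr, chr7:87493463-87493762, minus strand: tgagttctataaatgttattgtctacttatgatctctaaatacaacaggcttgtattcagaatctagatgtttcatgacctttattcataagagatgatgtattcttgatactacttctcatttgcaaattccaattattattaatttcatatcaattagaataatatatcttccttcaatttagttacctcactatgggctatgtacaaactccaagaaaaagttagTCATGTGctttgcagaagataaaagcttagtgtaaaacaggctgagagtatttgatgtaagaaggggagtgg
Tyrp1, chr4:80833963-80834262, plus strand: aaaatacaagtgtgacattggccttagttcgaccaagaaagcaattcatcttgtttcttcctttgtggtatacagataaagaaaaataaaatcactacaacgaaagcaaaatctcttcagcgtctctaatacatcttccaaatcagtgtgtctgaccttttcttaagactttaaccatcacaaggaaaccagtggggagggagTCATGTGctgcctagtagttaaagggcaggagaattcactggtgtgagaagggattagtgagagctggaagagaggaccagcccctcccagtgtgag
Dct, chr14:118052197-118052496, minus strand: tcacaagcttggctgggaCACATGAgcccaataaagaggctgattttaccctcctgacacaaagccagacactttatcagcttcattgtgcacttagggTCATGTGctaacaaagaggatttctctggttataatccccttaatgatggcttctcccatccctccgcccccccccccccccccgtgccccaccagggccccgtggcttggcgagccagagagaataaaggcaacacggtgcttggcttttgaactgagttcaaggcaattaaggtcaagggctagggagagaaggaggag
Slc24a5, chr2:125067877-125068176, plus strand: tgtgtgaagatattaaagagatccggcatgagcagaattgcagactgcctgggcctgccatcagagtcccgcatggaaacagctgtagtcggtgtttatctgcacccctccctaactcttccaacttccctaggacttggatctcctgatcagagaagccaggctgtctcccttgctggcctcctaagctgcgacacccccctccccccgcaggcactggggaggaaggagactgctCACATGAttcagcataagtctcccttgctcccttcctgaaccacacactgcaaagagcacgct
Mitf, window 3, chr6:97991533-97991832, plus strand: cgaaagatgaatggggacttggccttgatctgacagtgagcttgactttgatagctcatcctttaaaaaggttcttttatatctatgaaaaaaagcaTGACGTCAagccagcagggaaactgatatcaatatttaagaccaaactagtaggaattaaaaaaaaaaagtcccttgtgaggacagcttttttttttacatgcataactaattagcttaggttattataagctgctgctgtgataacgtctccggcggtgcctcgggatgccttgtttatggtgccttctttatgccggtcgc

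The M-box core began 22 bases upstream of the start in Tyr, 47 in Tyrp1 and 151 in Dct, with a further copy on the other strand at 232 in Dct and one on the other strand at 13 in Slc24a5. It was found in 4 of the 6 genes with a window and in none of the 3 Mitf windows or the Oca2 window. Of all 32851 windows in the table, 3.77% held this core on either strand. The core contains an E-box, CANNTG, which 72.3% of windows held. The cAMP response element lay 153 bases upstream in the third Mitf window and was present in 1.79% of all windows. Neither the core of the interferon-stimulated response element, which is GAAA, any 2 bases and GAAA again, nor TTCNNNGAA, the gamma-activated site, matched on either strand in any of the 8 windows, against 3.44% and 8.3% of all windows. A match is a description of these letters only.

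B16F10 libraries held between 15543131 and 26399495 reads on genes (median 22090024). Expression is given as CPM, read counts relative to library size after scaling by edgeR's TMM factors, and a gene was called where its adjusted p-value in edgeR's quasi-likelihood test, over all 21138 genes, was under 0.05. The interferon response was present in every treatment. Irf1, an early interferon target, was at 13.2 ± 2.19 CPM with vehicle and 682 ± 17.4 with IFNγ, 42.4 ± 4.25 with IFNβ and 18.04 ± 0.841 with STING agonist (SD, n = 3). Ifit1, a type I interferon target, was at 56.9 ± 4.44 CPM with vehicle and 458 ± 1.44, 997 ± 32.6 and 256 ± 9.81 with the 3 treatments in the same order. Isg15 was also called higher in all 3 comparisons. The melanocyte identity of the line was plain in the levels of its genes, since the 10 pigment genes took 2.10% ± 0.0079 (SD, n = 3) of all gene reads with vehicle. Of markers of other cells, the 5 leukocyte and 5 fibroblast genes summed to between 1.79 and 6.62 CPM in every B16F10 library. Cd3e and Itgam were at 0 reads in the vehicle and STING agonist groups and Lum at 0 with IFNβ. The most read with vehicle were Cd79a at 2.16 ± 0.808 CPM, Col1a2 at 2.02 ± 0.692, Col1a1 at 1.90 ± 0.115 and Ptprc at 1.22 ± 0.655. Against vehicle, only Cd79a was called, higher with IFNγ at 3.89 ± 1.12 CPM (adjusted p = 0.00166). The 12 epithelial markers, which 6694c2 cells express, summed to 15.3 to 21.8 CPM with vehicle, 17.8 to 41.5 with IFNγ, 19.1 to 60.7 with IFNβ and 112 to 147 with STING agonist, against 13100 to 14000 in 6694c2 vehicle libraries.

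Relative to exon length, Dct, Tyrp1, Pmel and Mlana were the most abundant of the 10 in every group. Levels between genes are compared as RPKM, which is CPM divided by the exon length in kilobases. The annotated lengths run from 623 bases for Mlana to 7108 for Tyr, and the order depends on them. In CPM with vehicle, Pmel was at 2749 ± 59.7, Slc45a2 at 920 ± 31.4, Mlana at 760 ± 20.8 and Tyr at 748 ± 32.5. With vehicle, Dct stood at 3526 ± 73.2 RPKM and Tyrp1 at 2417 ± 22.5 (SD, n = 3). Pmel followed at 1291 ± 28.1 and Mlana at 1220 ± 33.2, and the ranges of their libraries did not overlap. Slc45a2 was at 309 ± 10.5, Slc24a5 at 175 ± 2.29 and Sox10 at 161 ± 1.94. Tyr, although the first enzyme of the pathway, was lower at 105 ± 4.58, Mitf was at 48.0 ± 1.44 and Oca2 was the lowest at 2.62 ± 0.0783. The order was nearly the same in all groups. Mlana stood above Pmel with IFNγ (1185 ± 19.6 against 1041 ± 28.5) and with STING agonist (1329 ± 28.6 against 1204 ± 30.5), and with IFNβ their libraries overlapped (1010 ± 106 against 1129 ± 108). With IFNγ, Sox10 at 170 ± 10.2 RPKM overlapped with Slc45a2 at 175 ± 4.62 and stood above Slc24a5 at 133 ± 2.71. Tyr was then at 68.1 ± 2.47, and with IFNβ Slc24a5 and Sox10 overlapped (160 ± 5.02 and 156 ± 16.6).

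**Figure D1:**
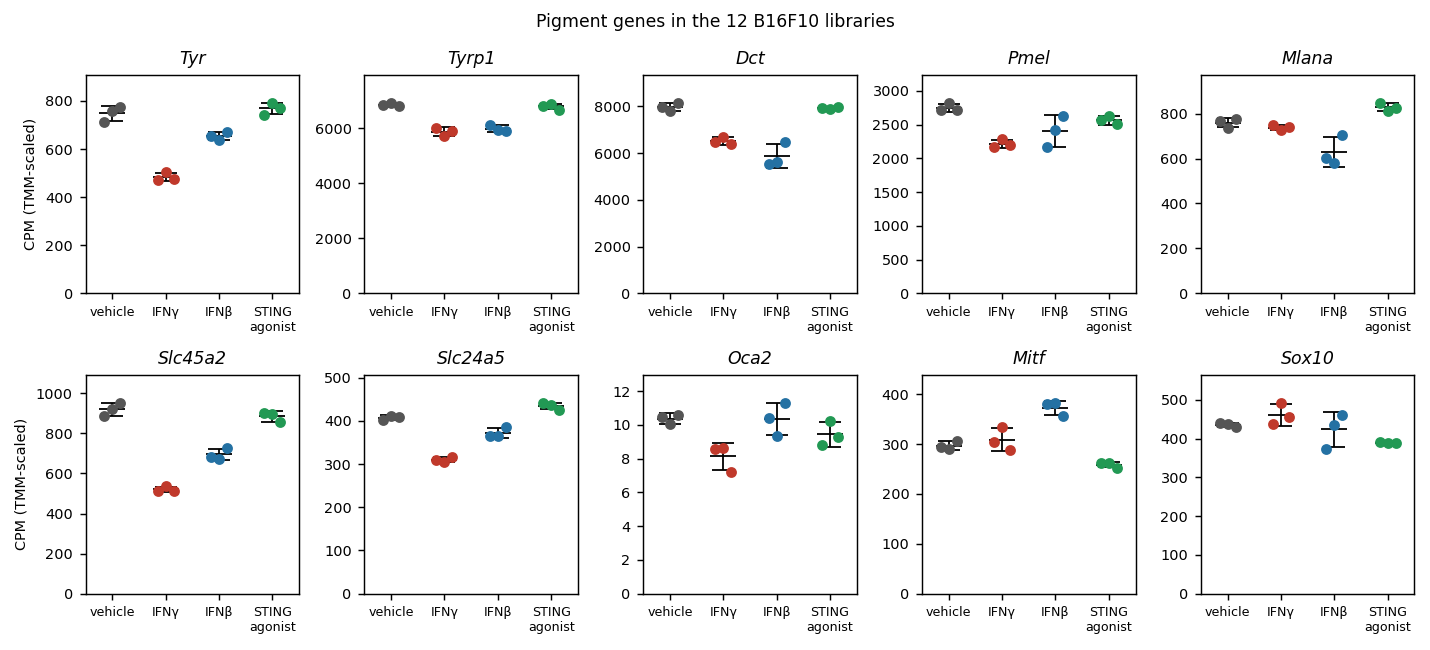
Level of each of the 10 pigment genes in CPM (linear axis from 0) in the 12 B16F10 libraries, with 1 point per library and the mean and SD of each group of 3. Tyr, Slc45a2, Slc24a5 and Oca2 libraries sit lowest with IFNγ, Dct and Mlana group means are lowest with IFNβ, and the Mitf libraries sit highest with IFNβ and lowest with STING agonist.

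With IFNγ, 7 of the 10 pigment genes were lower than with vehicle and none was higher. The same 7 and 0 were found at an unadjusted p under 0.05, while the shares that follow are at adjusted p. Of all genes tested, 10.8% were called lower and 12% higher. Among the 9142 genes at least as abundant as Oca2, the least abundant member, 21.3% were lower and 20.6% higher. The median log2 fold change of the 10 was −0.30, against 0 over all genes. The 7 were all 3 melanin enzymes, Pmel and all 3 transporters, and those not called were Mlana and both transcription factors, Mitf and Sox10.

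The largest difference among the 10 was in Slc45a2, which encodes a melanosomal transporter that raises melanosome pH. Its level was 888, 924 and 950 CPM in the vehicle libraries and 512, 536 and 513 with IFNγ. Every IFNγ library was thus far below every vehicle library, and the level fell by 43.5% (log2 fold change −0.82, SE 0.0505, 95% interval −0.92 to −0.72, adjusted p = 2.50e-44). Tyr was at 712, 757 and 775 CPM with vehicle and at 472, 504 and 476 with IFNγ. Again the groups stood apart, and Tyr fell by 35.4% (log2 fold change −0.63, SE 0.0509, 95% interval −0.73 to −0.53, adjusted p = 2.58e-28). Slc24a5, a sodium-calcium exchanger of the melanosome, went from 401, 412 and 408 CPM to 308, 305 and 317, which is −0.39 on the log2 scale (SE 0.0523, adjusted p = 1.13e-11), also without overlap. In the annotation, 921 of the 2330 exon bases of Slc24a5 also belong to Myef2 on the opposite strand, and the strand setting of the counting is not given in the sources used here, so reads of the pair cannot be told apart. Myef2 was itself lower with IFNγ (log2 fold change −0.21, adjusted p = 0.00119).

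The remaining calls were smaller. Pmel was at 2710, 2818 and 2720 CPM with vehicle and 2171, 2285 and 2194 with IFNγ (log2 fold change −0.31, SE 0.0470, adjusted p = 2.46e-09). Dct, dopachrome tautomerase, was at 7956, 7814 and 8145 CPM with vehicle and 6480, 6713 and 6394 with IFNγ (log2 fold change −0.29, SE 0.0437, adjusted p = 2.64e-09). Tyrp1 was at 6820, 6906 and 6783 CPM with vehicle and 6008, 5707 and 5893 with IFNγ (log2 fold change −0.22, SE 0.0434, adjusted p = 7.82e-06). For all 3 genes each IFNγ library lay below each vehicle library. Oca2, a melanosomal chloride channel gene with few reads, was at 10.5, 10.0 and 10.6 CPM with vehicle and 8.55, 8.65 and 7.23 with IFNγ, and its difference was less certain (log2 fold change −0.35, SE 0.125, 95% interval −0.59 to −0.10, adjusted p = 0.0276). The Oca2 call was lost without vehicle replicate 1, without vehicle replicate 3 or without IFNγ replicate 3, with adjusted p-values up to 0.182 over the alternatives. Only 98 exon bases of Pmel are shared with Dgka on the opposite strand, which held 2262 reads over the 12 libraries.

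Mlana was at 766, 737 and 777 CPM with vehicle and 749, 725 and 739 with IFNγ, so the libraries overlapped (log2 fold change −0.04, 95% interval −0.14 to 0.06, adjusted p = 0.644). Mitf was at 294, 290 and 307 CPM with vehicle and 305, 334 and 288 with IFNγ (log2 fold change 0.05, 95% interval −0.05 to 0.16, adjusted p = 0.565). Its direction was not stable across scalings and turned negative with upper quartile factors. Mitf is read from several starts, and counts per gene do not separate its isoforms, the melanocyte isoform included. Sox10 was at 440, 439 and 430 CPM with vehicle and 437, 491 and 455 with IFNγ (log2 fold change 0.08, 95% interval −0.02 to 0.18, adjusted p = 0.323). The intervals of both factors thus reach at most 0.18 on the log2 scale upwards, and downwards −0.05 for Mitf and −0.02 for Sox10. With all 24 libraries in 1 fit, whose spread includes the 6694c2 libraries, 3 of the 7 calls remained, those of Tyr, Slc45a2 and Slc24a5.

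**Figure D2:**
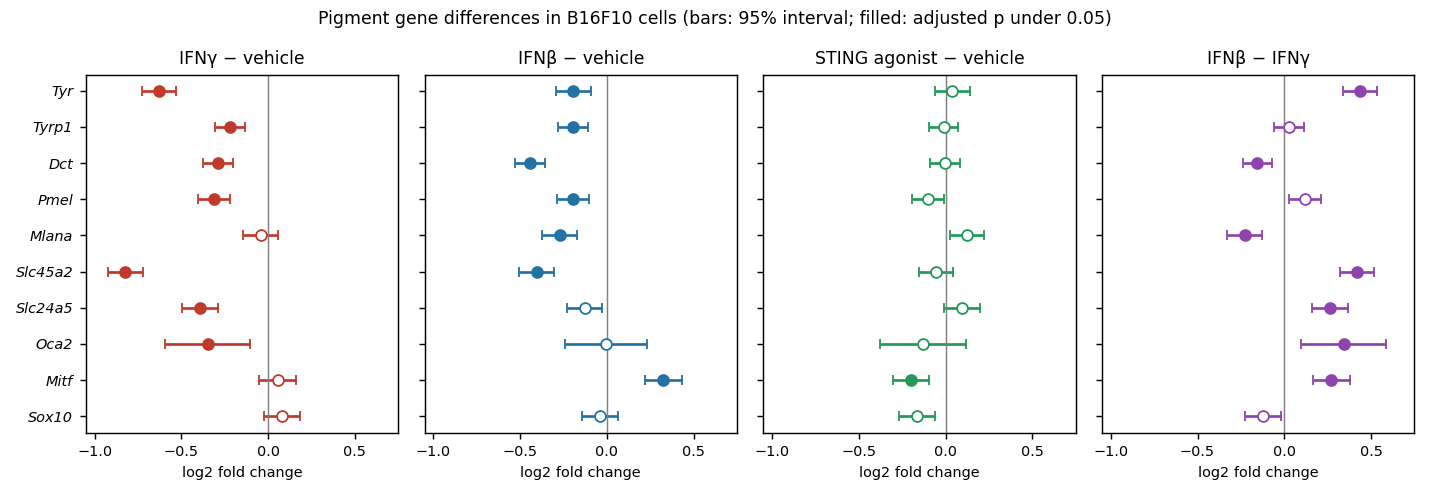
Log2 fold change of each pigment gene (points) with its 95% interval (bars) in 4 comparisons of B16F10 groups, with filled points for adjusted p-values under 0.05 in edgeR's quasi-likelihood test. With IFNγ 7 points are filled and all are negative, with IFNβ 6 are negative and Mitf is positive, and with STING agonist only Mitf is filled, at −0.20.

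With IFNβ, 6 of the 10 genes were lower than with vehicle and 1, Mitf, was higher. Of all genes, 11.2% were called lower and 12.7% higher in this comparison, and among the genes at least as abundant as Oca2 these shares were 22.8% and 21.8%. The median log2 fold change of the 10 was −0.19, against 0.02 over all genes. The vehicle libraries are the same as in the IFNγ comparison.

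Dct showed the largest difference of the 10, with 5518, 5619 and 6458 CPM in the IFNβ libraries against 7814 to 8145 with vehicle. It fell by 26.4% (log2 fold change −0.44, SE 0.0437, 95% interval −0.53 to −0.36, adjusted p = 6.44e-20), and IFNβ replicate 3 stood nearer to vehicle than the other two. Slc45a2 was at 683, 674 and 728 CPM with IFNβ, below every vehicle library (log2 fold change −0.41, SE 0.0502, adjusted p = 2.65e-13). Mlana, which was not called with IFNγ, was at 604, 579 and 705 CPM with IFNβ, below the 737 CPM of the lowest vehicle library (log2 fold change −0.27, SE 0.0508, adjusted p = 2.06e-06). Tyrp1 was at 6126, 5936 and 5875 CPM (log2 fold change −0.19, SE 0.0434, adjusted p = 0.000108) and Pmel at 2168, 2418 and 2629 CPM (log2 fold change −0.19, SE 0.0470, adjusted p = 0.000408). Both lay below vehicle in every library, and replicate 3 was the highest of the group for Pmel, Dct and Mlana. Tyr, at 656, 638 and 670 CPM, was lower by less than with IFNγ (log2 fold change −0.19, SE 0.0506, adjusted p = 0.00118).

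Mitf moved the other way. Its level was 294, 290 and 307 CPM with vehicle and 380, 382 and 356 with IFNβ, an increase of 25.4% with no overlap (log2 fold change 0.33, SE 0.0531, 95% interval 0.22 to 0.43, adjusted p = 3.73e-08), while 6 genes that it is known to activate were called lower in the same libraries. Slc24a5 was at 366, 366 and 386 CPM with IFNβ, below every vehicle library, but did not pass the threshold (log2 fold change −0.13, SE 0.0521, adjusted p = 0.0584), and 6 of 17 alternatives called it lower. Oca2 was at 10.4, 9.36 and 11.3 CPM, around the vehicle values, with a log2 difference between −0.24 and 0.23. Sox10 was spread from 374 over 436 to 462 CPM, and its difference was not called (log2 fold change −0.04, 95% interval −0.14 to 0.06, adjusted p = 0.670). With all 24 libraries in the fit, 2 of the 6 lower calls remained, Dct and Slc45a2, and Mitf was still called higher.

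The STING agonist libraries differed little from vehicle in these genes. Of the 10, 1 was called lower, Mitf, and none higher, against 1.53% of all genes called lower and 1.93% called higher (3.38% and 2.52% among the genes at least as abundant as Oca2). At an unadjusted p under 0.05, 3 were lower and 1 was higher. The shares above are at adjusted p and give no measure for this count. The median log2 fold change of the 10 was −0.03, against 0 over all genes. Mitf was at 263, 262 and 252 CPM with STING agonist, below the 290 CPM of the lowest vehicle library (log2 fold change −0.20, SE 0.0536, 95% interval −0.30 to −0.09, adjusted p = 0.0120). This call was lost without vehicle replicate 3 and without STING agonist replicate 3, and DESeq2 and the other scalings kept it. Sox10 was at 391, 390 and 388 CPM, also below every vehicle library, and did not pass (log2 fold change −0.16, 95% interval −0.27 to −0.06, adjusted p = 0.0565).

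None of the 8 genes other than the transcription factors was called with STING agonist. Tyr was at 743, 791 and 772 CPM, with an adjusted p of 0.827. Dct was at 7932, 7905 and 7992 CPM, and the interval of its log2 difference ran from −0.09 to 0.08. Tyrp1 was at 6807, 6870 and 6672 CPM, and the interval ran from −0.10 to 0.07, so differences of the size seen with IFNγ or IFNβ in these genes lie outside these intervals. Pmel, at 2563, 2631 and 2501 CPM, lay below every vehicle library without passing the threshold (log2 fold change −0.10, 95% interval −0.19 to −0.01, adjusted p = 0.326). Slc45a2 was at 903, 896 and 855 CPM (adjusted p = 0.720) and Oca2 at 8.79, 10.2 and 9.30 CPM (adjusted p = 0.754). Mlana at 847, 811 and 827 CPM and Slc24a5 at 440, 437 and 426 CPM lay above every vehicle library, without passing the threshold (log2 fold change 0.12, adjusted p = 0.217, and 0.09, adjusted p = 0.442). Of the 12 epithelial markers, 5 were called higher with STING agonist, 4 with IFNγ and 6 with IFNβ and none lower. Of all genes, 1.93%, 12% and 12.7% were called higher in the same order. Krt8, for example, went from 7.93 ± 1.92 to 59.1 ± 8.70 CPM with STING agonist. Most of these markers were below 1 CPM with vehicle, where a lower call was hardly possible. The median level of the 6 of these markers that reached 10 CPM in 6694c2 cells ranged from 0.888% to 1.10% of the 6694c2 vehicle level with STING agonist, and from 0.118% to 0.606% in the remaining B16F10 libraries. Reads of 6694c2 cells at 1.10% would lower the share of every other gene by 0.016 on the log2 scale. Called markers were not alike in this respect. As a percent of the 6694c2 vehicle level, Krt8 differed by 0.0958% and Muc1 by 11.2% between IFNγ and vehicle. With IFNβ, Krt8 differed by 0.119% and Epcam, at 1.02 ± 0.954 CPM, by 24.7%. The source of these reads was not tested.

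**Figure D3:**
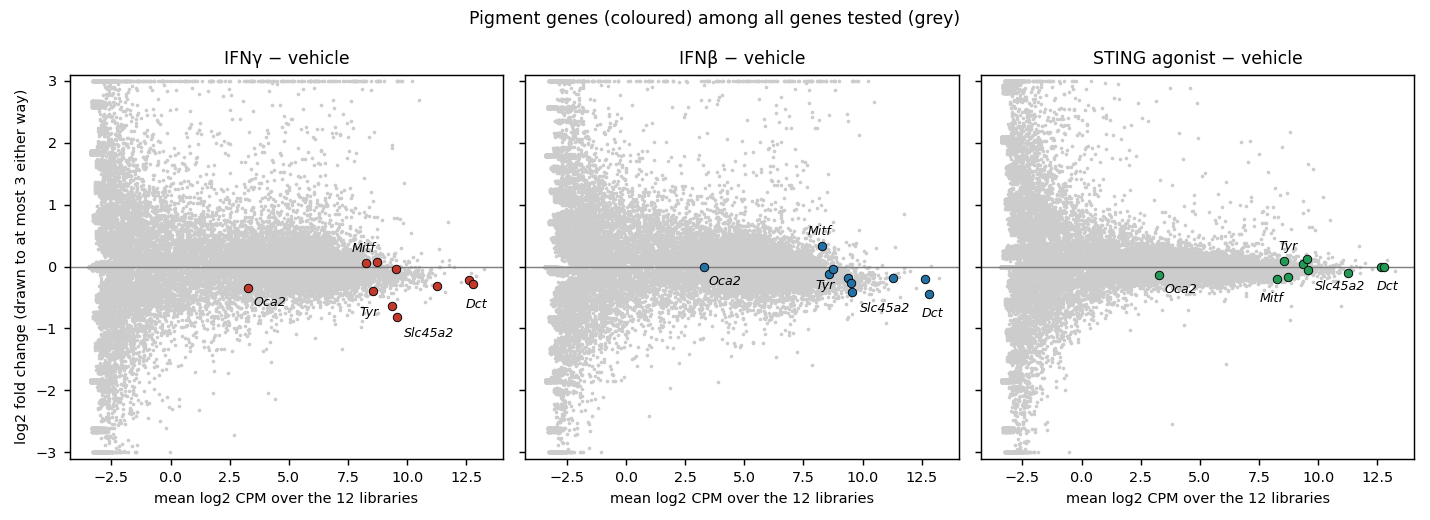
Log2 fold change against mean log2 CPM for all 21138 genes tested (grey) and the 10 pigment genes (coloured) in 3 comparisons with vehicle, with values beyond 3 drawn at the edge. The pigment genes are among the more abundant genes, and with IFNγ Slc45a2 and Tyr, at −0.82 and −0.63, lie below most genes of their abundance.

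The interferons were also compared directly, which tests where their responses differed. With IFNβ, 5 of the 10 genes were higher than with IFNγ and 2 were lower, against 6.65% of all genes higher and 7.85% lower (11.4% and 15.1% among the genes at least as abundant as Oca2). Tyr (log2 difference 0.44, SE 0.0509, adjusted p = 1.03e-14), Slc45a2 (0.42, adjusted p = 9.09e-14), Slc24a5 (0.26, adjusted p = 1.45e-05) and Mitf (0.27, adjusted p = 1.02e-05) were higher with IFNβ, without overlap between libraries. Oca2 was the fifth (0.34, adjusted p = 0.0429), and 9 of 17 alternatives lost that call. Mlana (−0.23, adjusted p = 0.000146) and Dct (−0.15, adjusted p = 0.00480) were lower with IFNβ, and the Dct libraries overlapped, since IFNβ replicate 3 at 6458 CPM lay above IFNγ replicate 3 at 6394. The Dct call was lost with library totals (−0.09, adjusted p = 0.0973) and, like that of Mlana, with all 24 libraries in the fit (adjusted p = 0.609 and 0.194). Tyrp1 did not differ beyond its error (0.03, 95% interval −0.06 to 0.11, adjusted p = 0.804), and neither Pmel (0.12, adjusted p = 0.0777) nor Sox10 (−0.12, adjusted p = 0.121) passed. The lowest group mean was with IFNγ for Tyr, Slc45a2, Slc24a5, Pmel, Tyrp1 and Oca2. It was with IFNβ for Dct and Mlana and with STING agonist for Mitf and Sox10.

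Summed over the 10 genes, the share of gene reads was 2.09%, 2.11% and 2.11% in the vehicle libraries. It was 1.69%, 1.73% and 1.68% with IFNγ and 1.73%, 1.75% and 1.84% with IFNβ, and all 6 of these libraries lay below vehicle. The mean differences were −0.40 and −0.33 percentage points, each at p = 0.1 in a two-sided exact permutation test, the smallest value that 3 against 3 libraries can give. With STING agonist the shares were 2.10%, 2.13% and 2.10%, a difference of 0.00913 percentage points (exact permutation p = 0.7). Dct and Tyrp1 make up most of this sum, so it weighs the genes by their reads.

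Other genes of the pigment cell were taken from a list of 66 symbols by role, of which 65 passed the minimum of reads. With IFNγ 14 were called higher and 11 lower, with a median log2 fold change of 0.04, beside 12% and 10.8% of all genes and 20.6% and 21.3% of those at least as abundant as Oca2. With IFNβ 19 were higher and 7 lower (median 0.06), beside 12.7% and 11.2% of all genes and 21.8% and 22.8% of the abundant ones. With STING agonist 1 was higher and none lower (median 0, and 64 were not called), beside 1.93% and 1.53% of all genes. These shares are also the ones to set beside the counts by role that follow.

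Genes of melanosome transport, which carry the finished organelle along actin to the cell edge, were lower with IFNγ in 5 of 5 cases. Of all genes, 10.8% were called lower with IFNγ and 11.2% with IFNβ. Among those at least as abundant as Oca2 these shares were 21.3% and 22.8%. Mlph, the adaptor between Rab27a and myosin Va, was at 293 ± 15.7 CPM with vehicle and 228 ± 1.89 with IFNγ (log2 fold change −0.36, adjusted p = 1.11e-09). The small GTPase Rab27a itself (−0.23, adjusted p = 0.000350) and Sytl2, a Rab27 effector (−0.40, adjusted p = 2.57e-06), were lower too. With IFNβ 2 of 5 were lower, Myo5a, the motor, at 458 ± 33.6 against 556 ± 29.4 CPM (−0.28, adjusted p = 2.38e-06) and Sytl2 (−0.26, adjusted p = 0.00431). Mlph and Rab27a were higher with IFNβ than with IFNγ (0.46, adjusted p = 1.10e-14, and 0.22, adjusted p = 0.000933).

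Among 8 other melanosome membrane genes, 3 were higher and 1 lower with each interferon. Mfsd12, a transporter of the melanosome, rose with IFNγ from 25.8 ± 1.52 to 42.4 ± 4.07 CPM (log2 fold change 0.71, adjusted p = 1.44e-15) and with IFNβ to 37.96 ± 4.18 (0.55, adjusted p = 6.54e-10). Tpcn2, a cation channel of lysosomes and melanosomes, rose by 0.70 and 0.55 (adjusted p = 2.35e-11 and 2.21e-07). Gpnmb, a glycoprotein related to Pmel, was lower with IFNγ, at 6879 ± 219 against 7680 ± 70.3 CPM (−0.16, adjusted p = 0.00203), and Clcn7, a lysosomal chloride-proton exchanger, was lower with IFNβ (−0.43, adjusted p = 4.24e-07). Of 15 biogenesis genes, 1 rose and 1 fell with IFNγ, and 5 rose and 1 fell with IFNβ. Bloc1s6, a subunit of a complex that sorts cargo to the melanosome, rose in both, from 35.7 ± 1.0 CPM with vehicle to 59.7 ± 0.549 and 53.9 ± 4.87.

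Of 4 receptors, 2 were read at 0.0864 CPM or less in every B16F10 group mean. The other 2 were higher with IFNγ, the neuregulin receptor Erbb3 (log2 fold change 0.47, adjusted p = 2.46e-07) and the melanocortin receptor Mc1r, at 188 ± 9.45 against 166 ± 6.55 CPM (0.18, adjusted p = 0.00935). With IFNβ only Erbb3 was called (0.33, adjusted p = 0.000572), and Mc1r was lower with IFNβ than with IFNγ (−0.29, adjusted p = 7.46e-06). Of 15 transcription factor genes, 14 were tested, and 4 were higher and 2 lower with IFNγ and 5 higher and 2 lower with IFNβ. Ctnnb1, the beta-catenin gene and a Mitf cofactor, was lower with both interferons (−0.35 and −0.27, adjusted p = 8.16e-11 and 8.14e-07). Tfap2a was higher (0.34, adjusted p = 7.10e-05) and Sox5 lower (−0.54, adjusted p = 0.000363) with IFNγ, and Zeb2 (0.31, adjusted p = 3.68e-06) and Snai2 (1.14, adjusted p = 3.29e-05) were higher with IFNβ, the latter at only 3.25 ± 0.800 CPM.

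Mitf targets outside pigment synthesis counted 10, with 1 higher and 2 lower with IFNγ and 2 higher and 1 lower with IFNβ. Ppargc1a, a coactivator of mitochondrial genes, was higher with IFNβ, at 150 ± 12.8 against 109 ± 5.56 CPM (log2 fold change 0.46, adjusted p = 1.61e-12), and Cdk2 (−0.24, adjusted p = 0.000177) and Trpm1 (−0.29, adjusted p = 0.00124) were lower with IFNγ. Of 9 neural crest and dedifferentiation genes, 6 were below 1 CPM in each B16F10 group mean, where a lower call was hardly possible. The other 3 were higher with each interferon, beside 12% of all genes with IFNγ and 12.7% with IFNβ. These were the receptor kinase Axl, at 23.03 ± 0.384 CPM with vehicle, 46.5 ± 2.7 with IFNγ and 66.3 ± 5.87 with IFNβ, the transcription factor Jun, at 27.02 ± 1.13, 68.3 ± 1.26 and 36 ± 2.56 CPM in the same order, and the neurotrophin receptor Ngfr, at 2.52 ± 0.841, 4.37 ± 0.853 and 3.90 ± 0.986 CPM. Axl was the only listed gene called with STING agonist (29.8 ± 3.01 CPM, log2 fold change 0.37, adjusted p = 0.000862). Its difference there was 1.43% of its level in 6694c2 cells with vehicle, 477 CPM. For the epithelial markers that reached 10 CPM in 6694c2 cells, the same measure ran from 0.675% (Elf3) to 0.983% (Krt18). The part of carried-over reads in the Axl difference was not tested.

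**Figure D4:**
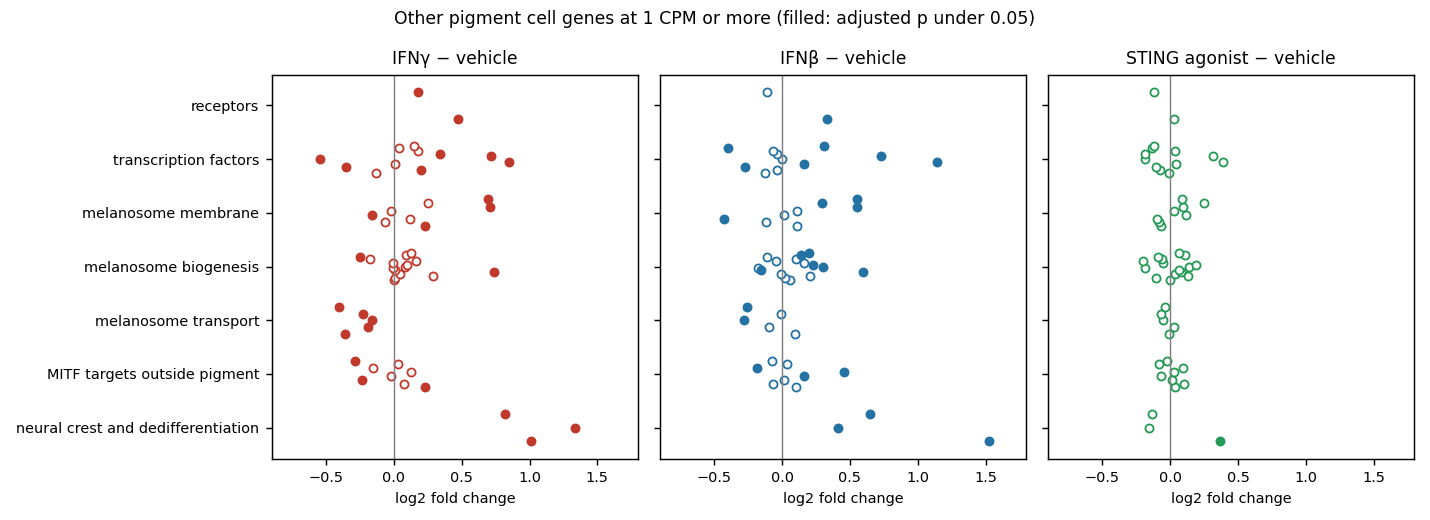
Log2 fold change of the other listed pigment cell genes with at least 1 CPM, 1 point per gene, by role and for 3 comparisons with vehicle, with filled points for adjusted p-values under 0.05. All 5 transport genes are filled and negative with IFNγ, the 3 neural crest and dedifferentiation genes are filled and positive with both interferons, and 1 gene, Axl, is filled with STING agonist.

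Genes outside the list were ranked by how closely their profile over the 12 libraries followed the median profile of the 10 pigment genes. The measure was the root mean square distance of log2 CPM relative to the vehicle mean, over 9063 genes with at least 10 CPM on average and the pigment genes. The 6 nearest were Aplp2 (distance 0.039), P4hb (0.0406), Tspan3 (0.0447), Rilpl1 (0.0466), Hadh (0.0479) and Atp6v0e2 (0.0486). Aplp2, for instance, had mean log2 differences of −0.30 with IFNγ and −0.21 with IFNβ. The pigment genes themselves ranged from 0.0569 for Pmel and 0.0607 for Tyrp1 to 0.293 for Slc45a2 and 0.315 for Mitf.

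Pigment genes were also read at trace level in the libraries of 6694c2 cells. With vehicle these cells showed the 10 genes at 0.00858%, 0.00874% and 0.00870% of gene reads, against 2.10% in B16F10 cells. The share was 0.00845%, 0.0130% and 0.00364% with IFNγ, 0.00385%, 0.00392% and 0.00257% with IFNβ, and 0.00187%, 0.00219% and 0.00228% with STING agonist. Relative to its own B16F10 vehicle level, the genes had medians over the 12 libraries of 0.151% for Tyr, 0.186% for Tyrp1, 0.164% for Dct, 0.197% for Pmel, 0.243% for Mlana, 0.182% for Slc45a2, 0.353% for Slc24a5 and 0.168% for Sox10. Single libraries ranged widely around these, for example from 0.0598% to 0.676% for Tyr. The median of Mitf was 0.950% (32 to 95 reads per library), and Oca2 had 0 to 2 reads. Whether the Mitf reads include transcription in 6694c2 cells was not tested. The highest value of any gene other than Mitf and Oca2 was 0.817%, for Mlana with IFNγ.

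**Figure D5:**
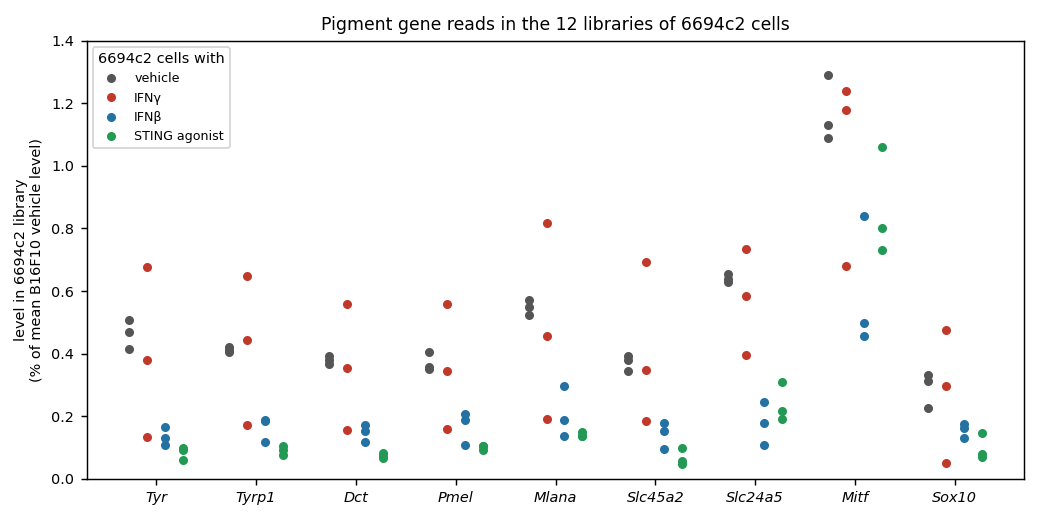
Level of 9 pigment genes in each of the 12 libraries of 6694c2 cells, as a percent (linear axis) of the mean level in B16F10 vehicle libraries, 1 point per library. Apart from Mitf, which reaches 1.29%, all values lie at or below 0.817%, and the IFNβ and STING agonist libraries lie below the vehicle libraries in all 9 genes.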

How the data were processed

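The authors trimmed bulk RNA-seq reads with cutadapt 1.14, aligned them with STAR 2.7.9a and counted them per gene with Rsubread, and they deposited raw counts for 24 libraries. The processing notes name mm10, and annotation release, strand setting and handling of multi-mapping reads are not given in the sources used here. Symbols matched 48970 of 49315 identifiers. The 6 single-cell samples were not analysed here. The members and lists were chosen with earlier results of these data known.

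Counts were tested in R 4.3.3 with edgeR 4.0.16, and DESeq2 1.42.0 served as an alternative (limma 3.58.1 was loaded with edgeR). A minimum of 10 reads over the 24 libraries left 21138 genes. The 12 B16F10 libraries were fitted together by group means after TMM normalization, with edgeR's quasi-likelihood test, Benjamini-Hochberg adjustment over all genes and a threshold of 0.05. Standard errors are the fold change over the root of its F statistic. The script was tested on simulated data. Shares of gene reads were compared by exact permutation tests, and percent levels in 6694c2 libraries use library totals without TMM. Replicates of a group all differed beyond sampling noise. The main fit did not pair samples by replicate number, and correlations between same-numbered samples are given below.

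Genes were named by rule: the 10 pigment genes, per role and comparison up to 3 listed genes with the smallest p among those called and at least 1 CPM in a compared group, Irf1, Isg15 and Ifit1, and the 6 nearest profiles. A further gene of this rule is not reported here. Krt8, the leukocyte and fibroblast markers named, Myef2, Dgka, Tfe3 and Tfec lie outside this rule and were picked with their values known. The alternatives were DESeq2, RLE, upper quartile and unscaled library sizes, other minimums of reads, a replicate block, a robust fit, 6 or all 24 libraries, each library left out in turn and, added after seeing the data, library sizes without the 10 genes.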

Additional observations from a re-analysis of the deposited data

Results flagged for a closer look

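In the 6694c2 libraries, which the comparisons between B16F10 groups do not use, IFNγ replicate 2 held the 10 pigment genes at 0.013% of gene reads, above every 6694c2 vehicle library (0.00858% to 0.00874%). The other IFNγ libraries of this line were at 0.00845% and 0.00364%.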

How the results depend on the processing

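Over 17 alternatives, 621 of 680 values of single pigment genes kept their direction and side of the threshold, 26 lost and 15 gained a call and 18 turned direction. Tyr, Slc45a2 and Slc24a5 with IFNγ, and Dct, Slc45a2 and Mitf with IFNβ, were called under every alternative. With all 24 libraries in the fit, whose spread is larger, 3 genes were lower with IFNγ, 2 with IFNβ and 0 with STING agonist, and 0 were lower with IFNβ than with IFNγ, where library totals gave 1. With STING agonist, the 6 libraries alone gave 2 lower (Mitf and Sox10) and 1 higher (Mlana), and leaving out 1 library gave 0 to 1 lower. Adjusted p-values of Mitf with STING agonist ranged from 9.87e-05 to 0.324, and of Oca2 with IFNγ from 0.00532 to 0.182. In the fit with replicate number as a block, 7 genes were lower with each interferon and 1 was higher with IFNβ, 2 were lower with STING agonist, and 6 were higher and 2 lower with IFNβ than with IFNγ. Deviations of same-numbered samples correlated between −0.147 and 0.189, and those of samples with different numbers between −0.167 and 0.174. Whether same-numbered samples were handled together was not tested.

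Small differences turned sign. Mitf with IFNγ was −0.01255 with upper quartile factors and −0.00385 to 0.1018 with 1 library left out. Oca2 with IFNβ was 0.02849 with library totals and −0.06905 to 0.05947 with 1 library left out, and Sox10 with IFNβ was −0.1054 to 0.03518. Dct with STING agonist was 0.003448 with DESeq2 and with RLE, 0.01979 with library totals, 0.004422 with upper quartile factors, 0.00355 with the filterByExpr minimum, 0.00362 in the 6 libraries, 0.001546 in all 24 and −0.0194 to 0.01055 with 1 left out. Tyrp1 with STING agonist was 0.01359 with library totals and −0.02636 to 0.001182 with 1 left out, and Tyrp1 between the interferons was −0.002581 to 0.04031. With TMM-scaled totals the summed share differed by −0.3692 percentage points with IFNγ and by −0.02733 with STING agonist. The cause was not tested.

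Over all genes, upper quartile factors gave 2001 higher and 3332 lower with IFNγ (2529 and 2292 with TMM) and 2186 and 2883 with IFNβ (2695 and 2371). Library totals gave 453 and 187 with STING agonist (408 and 324) and 2209 and 1206 between the interferons (1406 and 1659). Lower calls with STING agonist ranged from 105 with all 24 libraries to 628 with 6.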

Other observations

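Tfeb and Tfe3 are relatives of Mitf that bind the same E-boxes. Tfeb, a regulator of lysosomal genes, was at 23.1 ± 0.585 CPM with vehicle and 17.5 ± 2.40 with IFNβ (SD, n = 3), where Mitf rose (log2 fold change −0.40, adjusted p = 0.000200 in edgeR's quasi-likelihood test). It was at 23.8 ± 1.48 CPM with IFNγ (adjusted p = 0.852) and 21.1 ± 0.901 with STING agonist (adjusted p = 0.596). Tfe3 was at 34.2 ± 2.78 CPM with vehicle, 38.7 ± 1.38 with IFNγ and 32.8 ± 4.39 with IFNβ, and differed between the interferons (log2 difference −0.24, adjusted p = 0.0212) without a call against vehicle. Tfec, the remaining relative, was below 0.1 CPM in each group mean.

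Dgka, which overlaps Pmel on the opposite strand, was higher with IFNγ (log2 fold change 1.29, adjusted p = 3.51e-19) and with IFNβ (0.54, adjusted p = 0.000795) while Pmel was lower. Myef2, which overlaps Slc24a5, fell by 0.42 on the log2 scale with IFNβ (adjusted p = 9.34e-12).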
